A study of Mus musculus with 8 samples.

Results

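The genes described here are 34 members of the sterol and fatty acid synthesis programme that is switched on by the sterol regulatory element-binding proteins (SREBPs). They were taken by symbol from a table of read counts for 55376 mouse genes, and all 34 were present and had enough reads to be tested among 14382 genes. The members comprise 8 enzymes of the mevalonate and isoprenoid pathway, 11 enzymes that turn farnesyl diphosphate into cholesterol, 6 regulators and transport genes, and 9 enzymes of fatty acid synthesis, desaturation and elongation. The samples were cultures of bone marrow dendritic cells, which take up microbes and present antigen, kept overnight with heat-inactivated Prevotella. One group of 3 samples received P. melaninogenica (PM) and the other 3 received P. heparinolytica (PH), and polyadenylated RNA was sequenced with a strand-marking kit. Both groups carry the sample ids 1, 3 and 4, there were no untreated cells, and the sources used here do not name the mouse strain, the genotype or the culture factors. Each difference is thus between the bacteria, not between a bacterium and rest.

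As background, SREBPs are transcription factors made as membrane proteins of the endoplasmic reticulum. When membrane cholesterol is low, the escort protein Scap carries them to the Golgi, where proteases release the active part. When cholesterol is high, Insig proteins hold Scap back. SREBP-2, from Srebf2, acts mainly on cholesterol genes, and SREBP-1, from Srebf1, acts more on fatty acid genes. In myeloid cells this lipid supply is known to be reset by Toll-like receptor and interferon signals.

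Total counts ranged from 11624367 in PH sample 3 to 40233148 in PH sample 4. PH sample 3, the shallowest, also had 4013 CPM (read counts scaled to a common library total with TMM factors) of Gm42418, a predicted gene, against 867 to 1462 in the other 5. The PH column with id 3 and the PM column with id 1 each match 2 sequenced libraries (runs 1 and 2) by name. Of 8 dendritic cell markers checked, Cd209a had 0 reads in all samples, and the sum of all 8 was 8188 to 10050 CPM with PH and 8086 to 9705 with PM. The 6 macrophage markers summed to 1070 to 1531 CPM with PH and 1218 to 1703 with PM, and with the sample id as a block Cd68 rose and Fcgr1 fell. The 8 neutrophil markers summed to 470 to 589 CPM with PH and 363 to 512 with PM. The 4 adipocyte markers, a cell type rich in fatty acid enzymes, summed to 0.0821 to 0.199 CPM with PH and 0.0333 to 0.143 with PM, with Lep at 0 throughout. T cell, B cell, NK cell and erythroid markers summed to at most 15.0 CPM, and stromal markers to 60.9 to 139 CPM, of which Pdgfrb fell (-0.70). The part of these cells in the results below was not tested, and in bulk RNA a change in cell numbers cannot be told apart from a change in RNA per cell.

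The regulatory letters of the pathway are shown first, for members on which the results turn. SREBP acts at a sterol regulatory element, searched here as TCACNCCAC, together with the CCAAT-binding factor NF-Y. RefSeq (GRCm38.p6) windows from 250 bases before to 50 after the start site were available for 27 of the 34 members. CCAAT, on either strand, was in the window of 22 of these 27 members (81.5%), against 41.1% of all 27025 genes with a window and 42.8% of the 10618 of them tested here. By role it was in 15 of 16 sterol enzymes, 3 of 6 fatty acid enzymes and 4 of 5 regulators. TCACNCCAC was in 1 member, Hmgcs1, against 1.44% of all genes, and the E-box CACGTG was in 6 members (22.2%) against 8.09% of all genes and 11.5% of those tested. The Sp1 motif GGGCGG was in 21 members (77.8%), against 38.2% of all genes and 66.7% of those tested. The printed stretches end before the RefSeq start site and hold no exon base of their gene in the deposited table. Capitals mark CCAAT on either strand, which reads ATTGG when it lies on the other, and also CACGTG and matches to the sterol element. Mvd, Hsd17b7 and Sc5d are shown as sterol enzymes that rose with PM, Hmgcs1 as the holder of the sterol element, and Acly as a fatty acid enzyme that passed no test.

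Mvd (chr8:122443423-122443572, minus strand): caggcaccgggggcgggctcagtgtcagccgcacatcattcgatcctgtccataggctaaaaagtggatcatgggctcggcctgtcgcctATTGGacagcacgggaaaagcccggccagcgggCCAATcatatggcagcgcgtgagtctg
Hsd17b7 (chr1:169969242-169969355, minus strand): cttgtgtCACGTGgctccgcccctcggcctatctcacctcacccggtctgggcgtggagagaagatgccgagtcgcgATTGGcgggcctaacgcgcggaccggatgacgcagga
Sc5d (chr9:42264301-42264450, minus strand): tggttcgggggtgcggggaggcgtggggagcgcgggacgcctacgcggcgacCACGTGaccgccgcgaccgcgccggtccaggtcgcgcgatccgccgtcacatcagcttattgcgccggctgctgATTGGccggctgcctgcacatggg
Hmgcs1 (chr13:119690201-119690350, plus strand): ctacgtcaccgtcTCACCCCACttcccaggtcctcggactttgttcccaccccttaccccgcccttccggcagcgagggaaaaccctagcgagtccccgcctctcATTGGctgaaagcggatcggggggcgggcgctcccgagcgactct
Acly (chr11:100528001-100528150, minus strand): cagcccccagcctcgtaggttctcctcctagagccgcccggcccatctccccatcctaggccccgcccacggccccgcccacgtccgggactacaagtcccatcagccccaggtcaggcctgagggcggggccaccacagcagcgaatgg

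In these stretches Mvd holds 2 CCAAT matches, Hsd17b7, Sc5d and Hmgcs1 hold 1 each, and Acly holds 0, with its match at position 38 after the start site. Cyp51 has a match at position -29 and Msmo1 at -160, -96 and -55, counted from the start site. CCAAT also lies before the start site of other members that, like Acly, passed no test. These include Pmvk (-136), Idi1 (-45 and -14), Elovl5 (-71 and -17) and Srebf2 (-135). A CCAAT match before the start site thus does not set members that rose apart from members that did not. A match describes the letters, not binding.

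Cells given PM had slightly higher levels of many cholesterol enzymes than cells given PH. Of the 34 members, 7 rose and 0 fell (edgeR quasi-likelihood test, adjusted p under 0.05 over all genes), by 1.24-fold to 1.37-fold. These were 6 of 19 sterol enzymes and 1 of 9 fatty acid enzymes, while 0.702% of all genes tested were called higher and 1.64% lower. At an unadjusted p under 0.05, 17 members were higher and 0 lower, against 6.36% and 6.79% of all genes. DESeq2 called 9 higher and 0 lower, against 1.34% and 2.61% of all genes. In the blocked fit, in which the sample id is a replicate block and which compares PM with PH within each id, 16 members rose and 0 fell, against 7.00% and 8.27% of all genes. In 14 members every PM sample was above every PH sample, and in 0 every PM sample was below, against 10.1% and 9.28% of all genes. The calls of the fit without the block depended on single samples. There were 7 without PM sample 1, where 0.744% of all genes were called higher, 2 without PH sample 3 (Mvd and Fads1, 0.297%) and 1 without PM sample 3 (Dhcr7, 0.290%). There were 0 without PH sample 1 (0.375% of all genes), PH sample 4 (0.241%) or PM sample 4 (0.179%). The blocked fit called 13 members higher without id 1, 18 without id 3 and 17 without id 4, against 5.80%, 4.37% and 4.92% of all genes. The same 13 members, including all 7, were called in each of these 3 fits.

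**Figure D1:**
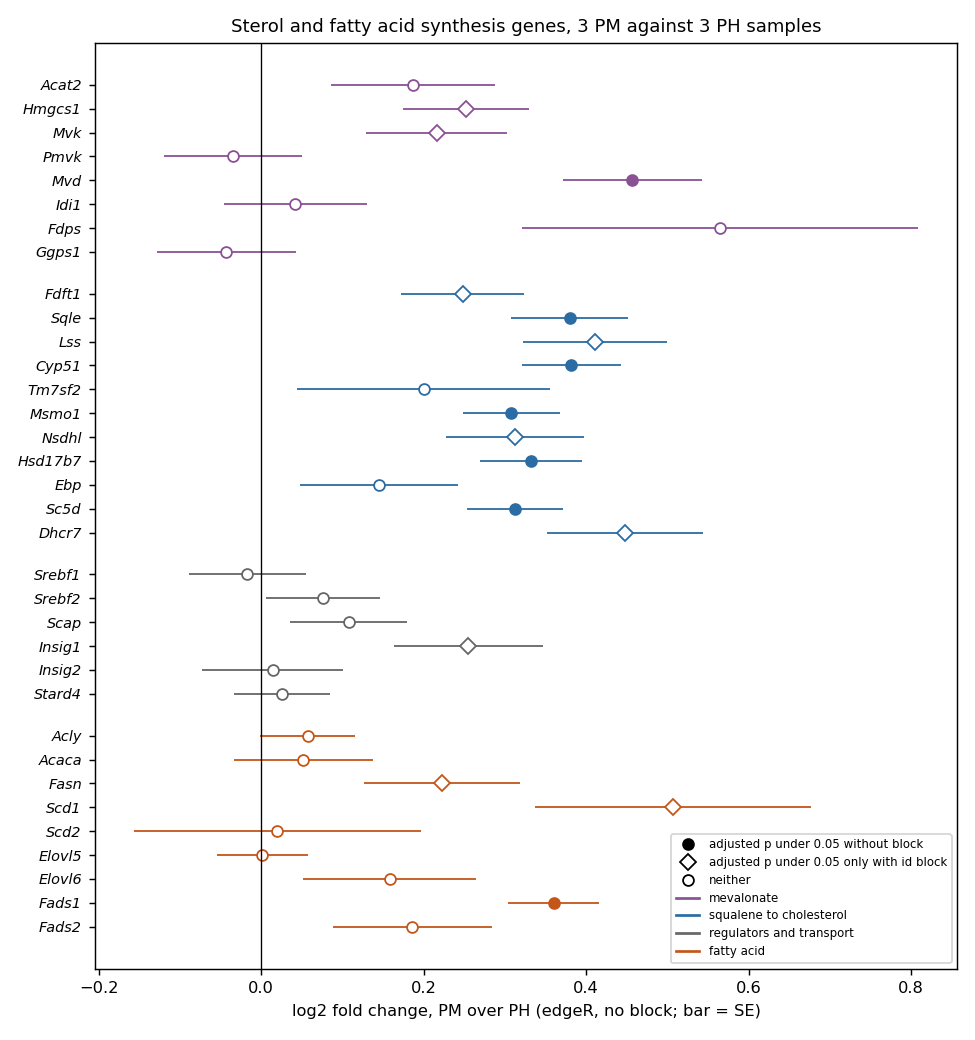
Log2 fold change of PM over PH for each of the 34 members (x axis) by gene (y axis), from the edgeR fit of 3 PM and 3 PH samples without block, with the standard error as a bar, colours for the roles, filled points for members past the threshold and diamonds for those past it only with the block. The 11 enzymes from squalene synthase to cholesterol all lie right of 0, between 0.15 and 0.45, while Srebf1, Pmvk and Ggps1 lie left of it.

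The first steps of the pathway make mevalonate from acetyl-CoA and turn it into isoprenoid units. Here 1 of 8 enzymes rose, against 0.702% of all genes, and 3 rose with the block, against 7.00%. The list's median difference was 0.20 on the log2 scale, against 0.01 for all genes. Mvd, mevalonate diphosphate decarboxylase (chromosome 8, 122433601 to 122443422, minus strand, GRCm38), was at 54.9, 69.3 and 64.1 CPM in PH samples 1, 3 and 4 and at 90.2, 85.1 and 82.8 CPM in PM samples 1, 3 and 4. Its groups did not overlap, and its log2 fold change was 0.46 ± 0.09 (SE, n = 3 per group, adjusted p = 0.0300 by edgeR). Hmgcs1, HMG-CoA synthase, whose promoter holds the sterol element shown above, was at 146, 167 and 164 CPM with PH and at 176, 203 and 188 CPM with PM. The groups of Hmgcs1 did not overlap, and the difference of 0.25 ± 0.08 passed only with the block (adjusted p = 0.182, or 1.8e-04 with the block, by edgeR). Mvk, mevalonate kinase, was at 29.7, 31.4 and 27.5 CPM with PH and at 37.8, 33.4 and 31.6 CPM with PM, and it too passed only with the block (adjusted p = 0.0180 by edgeR). Mvk lost that blocked call without id 1 (log2 fold change 0.15, adjusted p = 0.157 by edgeR) and without id 4 (0.23, adjusted p = 0.104).

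The other early enzymes passed neither fit. Pmvk, phosphomevalonate kinase, which acts between Mvk and Mvd, was at 111, 131 and 136 CPM with PH and at 117, 126 and 126 CPM with PM (log2 fold change -0.04 ± 0.08). Idi1, the isopentenyl diphosphate isomerase (0.04 ± 0.09), and Ggps1, which makes geranylgeranyl diphosphate for protein prenylation (-0.04 ± 0.09), also had overlapping groups. Acat2, which makes acetoacetyl-CoA, differed by 0.19 ± 0.10, and by 0.50 in id 1 against -0.06 in id 3 and 0.10 in id 4. Fdps, farnesyl diphosphate synthase, had an estimate of 0.57 ± 0.24 (adjusted p = 0.369, or 0.0522 with the block, by edgeR). Its difference was 0.75, 1.25 and -0.03 in ids 1, 3 and 4, and the blocked value was 0.36 without id 1, 0.32 without id 3 and 0.95 without id 4 (adjusted p = 0.207, 0.351 and 3.6e-04 by edgeR). Its counts were 21 to 133 per sample, and its exons overlap those of Gm43738 on the same strand over 77.4% of their length, so its value is uncertain.

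From squalene to cholesterol, 5 of 11 enzymes rose, against 0.702% of all genes, and 9 rose with the block, against 7.00%. The log2 fold change was positive in 11 of 11, against 52.4% of all genes. The median of these enzymes was 0.31. Sqle, squalene epoxidase, a rate-limiting step (chromosome 15, 59315081 to 59331192, plus strand), was at 125, 142 and 142 CPM with PH and at 171, 186 and 174 CPM with PM. All PM samples of Sqle were above all PH samples, a log2 fold change of 0.38 ± 0.07 (adjusted p = 0.0313 by edgeR). Cyp51, lanosterol 14-alpha-demethylase (chromosome 5, 4081145 to 4104746, minus strand), was at 106, 107 and 108 CPM with PH and at 148, 136 and 134 CPM with PM. The PH values of Cyp51 lay close together, and its log2 fold change was 0.38 ± 0.06 (adjusted p = 0.0135 by edgeR).

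The enzymes after Cyp51 remove methyl groups and move double bonds. Msmo1, the C4-methyl sterol oxidase (chromosome 8, 64718139 to 64733792, minus strand), was at 96.3, 102 and 106 CPM with PH and at 128, 123 and 127 CPM with PM, a difference of 0.31 ± 0.06 (adjusted p = 0.0364 by edgeR). Hsd17b7, the 3-ketosteroid reductase of the same step (chromosome 1, 169949535 to 169969241, minus strand), was at 33.3, 33.4 and 34.4 CPM with PH and at 44.8, 41.5 and 41.1 CPM with PM. Sc5d, sterol-C5-desaturase (chromosome 9, 42251595 to 42264256, minus strand), was at 49.5, 51.1 and 53.4 CPM with PH and at 62.0, 66.0 and 63.2 CPM with PM. Neither gene had overlapping groups, and their log2 fold changes were 0.33 ± 0.06 and 0.31 ± 0.06 (adjusted p = 0.0322 and 0.0302 by edgeR). Dhcr7, which makes cholesterol from 7-dehydrocholesterol, was at 17.4, 17.4 and 17.9 CPM with PH and at 26.9, 21.2 and 24.1 CPM with PM. Lss, lanosterol synthase, was at 36.7, 37.6 and 39.3 CPM with PH and at 57.5, 48.1 and 46.1 CPM with PM. In both, every PM sample was above every PH sample, and the spread was wider with PM than with PH. Their differences, 0.45 ± 0.10 and 0.41 ± 0.09, were just short of the threshold without the block (adjusted p = 0.0539 and 0.0558) and passed it with the block (2.8e-05 and 4.1e-05) and in DESeq2 (0.0118 and 0.0106).

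Fdft1, squalene synthase (0.25 ± 0.08), and Nsdhl, the C4-decarboxylating dehydrogenase (0.31 ± 0.09), passed only with the block (adjusted p = 0.00195 and 0.00157 by edgeR). Fdft1 was at 56.4, 68.7 and 60.0 CPM with PH and at 75.0, 73.1 and 71.0 CPM with PM. Nsdhl was at 22.0, 25.1 and 23.4 CPM with PH and at 31.2, 26.8 and 29.2 CPM with PM. Neither gene had overlapping groups, but in id 3 the differences were only 0.09 each. Exons of Fdft1 overlap Ctsb on the other strand over 19.4% of their length, as do those of Scap (18.6%), Hmgcs1 (16%), Idi1 (10.7%) and Lss (8.16%) with other genes, and the strand setting of the counting is not known, so these values are uncertain. Ebp, the sterol isomerase (0.15 ± 0.10), and Tm7sf2, a sterol C14-reductase (0.20 ± 0.16), passed neither fit. Tm7sf2 was at 16.3, 26.0 and 19.4 CPM with PH and at 20.6, 25.3 and 23.6 CPM with PM, so the PH samples alone spanned the range of the PM samples.

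**Figure D2:**
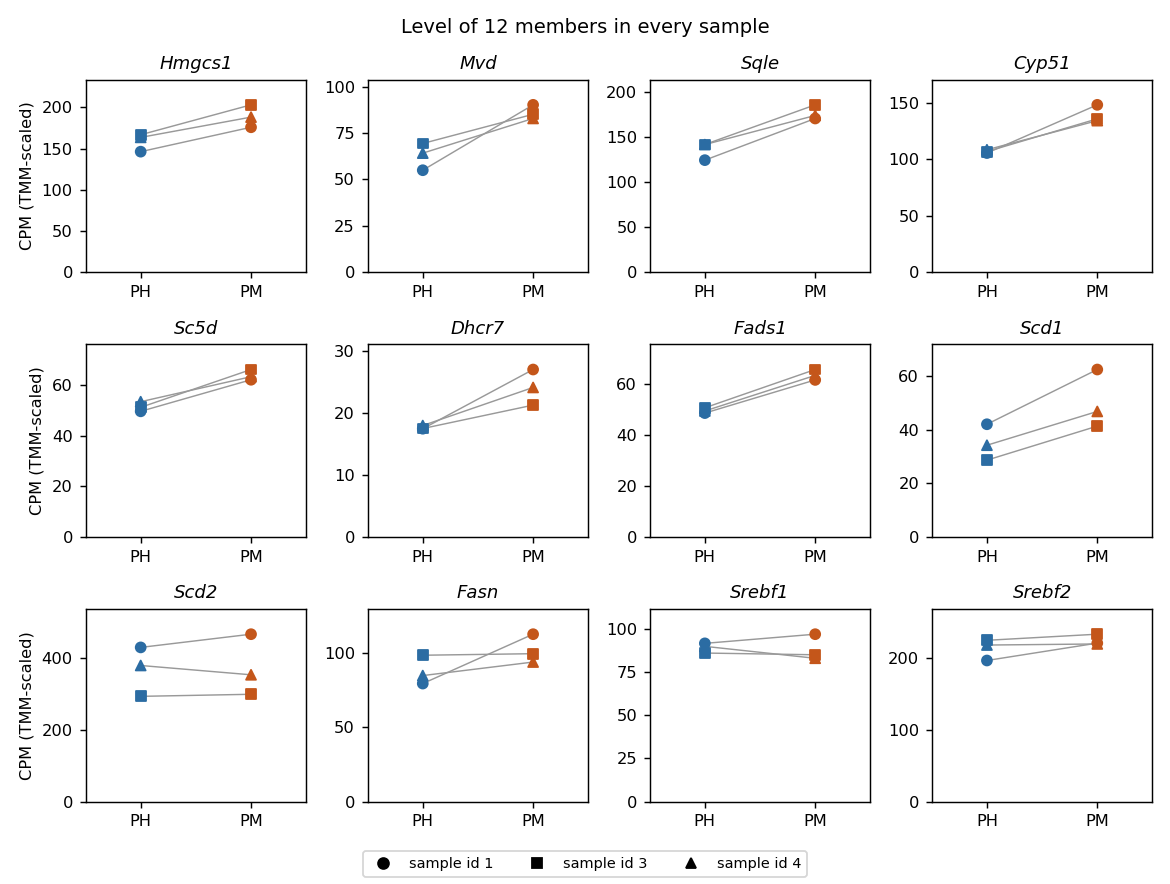
Level in TMM-scaled CPM (y axis, from 0) of 12 members in the 3 PH and 3 PM samples, with a line joining samples of the same id and a marker shape for each id. Every PM point lies above every PH point for Hmgcs1, Mvd, Sqle, Cyp51, Sc5d, Dhcr7 and Fads1, whereas the points of Scd1, Scd2, Fasn, Srebf1 and Srebf2 overlap between the groups.

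Among the 6 regulators and transport genes, 0 passed in edgeR or DESeq2, with a median log2 fold change of 0.05. At an unadjusted p under 0.05, 1 was higher, against 6.36% of all genes. Srebf2 was at 196, 224 and 218 CPM with PH and at 221, 233 and 219 CPM with PM (0.08 ± 0.07, adjusted p = 0.718 by edgeR). Srebf1 was at 91.7, 86.1 and 90.0 CPM with PH and at 97.0, 85.1 and 83.1 CPM with PM (-0.02 ± 0.07, adjusted p = 0.953 by edgeR). The groups of both factor genes overlapped. Messenger RNA says nothing of how much SREBP protein was cleaved. Insig1, itself an SREBP target, was at 62.4, 61.3 and 65.9 CPM with PH and at 87.3, 70.5 and 69.3 CPM with PM, so the groups did not overlap but PM sample 1 was far above the other samples. Its difference of 0.26 ± 0.09 had adjusted p = 0.265, or 0.00581 with the block, and 0.175 with the block without id 1 (edgeR). Insig2, the second Insig gene, was at 36.7, 30.8 and 30.9 CPM with PH and at 31.3, 33.2 and 34.9 CPM with PM, with overlapping groups. Scap (0.11 ± 0.07) and Stard4, a cytosolic carrier of sterols that is also an SREBP target (0.03 ± 0.06), passed neither fit. Stard4 ranged from 51.3 to 54.9 CPM with PH and from 52.9 to 56.4 CPM with PM.

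Of the 9 fatty acid enzymes, 1 rose, against 0.702% of all genes, and 3 rose with the block, against 7.00%. The estimate was positive in 9 of 9, against 52.4% of all genes, and the list's median was 0.16. Fads1, the delta-5 desaturase that makes long polyunsaturated fatty acids (chromosome 19, 10182888 to 10196877, plus strand), was at 48.6, 50.7 and 49.4 CPM with PH and at 61.6, 65.7 and 63.4 CPM with PM. Its groups were far apart and its difference was alike in the 3 ids, at 0.34, 0.37 and 0.36, with a log2 fold change of 0.36 ± 0.06 (adjusted p = 0.0120 by edgeR). Its neighbour Fads2, the delta-6 desaturase, was at 41.0, 50.8 and 52.5 CPM with PH and at 58.6, 53.2 and 52.4 CPM with PM, and passed neither fit (0.19 ± 0.10, adjusted p = 0.470 by edgeR).

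The next enzymes supply acetyl units and build the chain. Acly, ATP-citrate lyase, which supplies cytosolic acetyl-CoA to both pathways, was at 266, 263 and 272 CPM with PH and at 287, 275 and 272 CPM with PM (0.06 ± 0.06, adjusted p = 0.756 by edgeR). Acaca, acetyl-CoA carboxylase, was at 24.0, 20.03 and 23.5 CPM with PH and at 24.5, 23.3 and 22.8 CPM with PM (0.05 ± 0.09). Fasn, fatty acid synthase, was at 79.2, 98.3 and 84.6 CPM with PH and at 112, 99.3 and 93.7 CPM with PM. The groups of Fasn overlapped, and its difference of 0.22 ± 0.10 had adjusted p = 0.365, 0.0416 with the block and 0.374 with the block without id 1 (edgeR). The elongases Elovl5 (0.00 ± 0.06) and Elovl6 (0.16 ± 0.11) passed neither fit.

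The stearoyl-CoA desaturases Scd1 and Scd2, which introduce the double bond of oleate, gave different values from neighbouring loci on chromosome 19. Scd1 (44394455 to 44407709) was at 42.1, 28.7 and 34.2 CPM with PH and at 62.5, 41.4 and 46.9 CPM with PM. Scd2 (44293674 to 44306864) was at 430, 294 and 380 CPM with PH and at 467, 300 and 354 CPM with PM. Both genes were highest in id 1 and lowest in id 3 under either bacterium, and Scd1 was higher with PM within each id, by 0.57, 0.53 and 0.45 on the log2 scale. Scd1 therefore failed without the block (0.51 ± 0.17, adjusted p = 0.222) and passed with it (0.51 ± 0.06, adjusted p = 4.7e-08), while Scd2 passed neither (adjusted p = 0.980 and 0.894, edgeR). The ratio of Scd1 to Scd2 reads, which no library scaling can move, was 0.0978, 0.0976 and 0.0901 in the PH samples and 0.134, 0.138 and 0.132 in the PM samples. These ratios did not overlap, and the spread between ids seen in each gene alone was small in the ratio. As the pair was chosen after its values were seen, no test is given. The genes are paralogs, and the sources used here do not say how reads with several matches were counted.

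**Figure D3:**
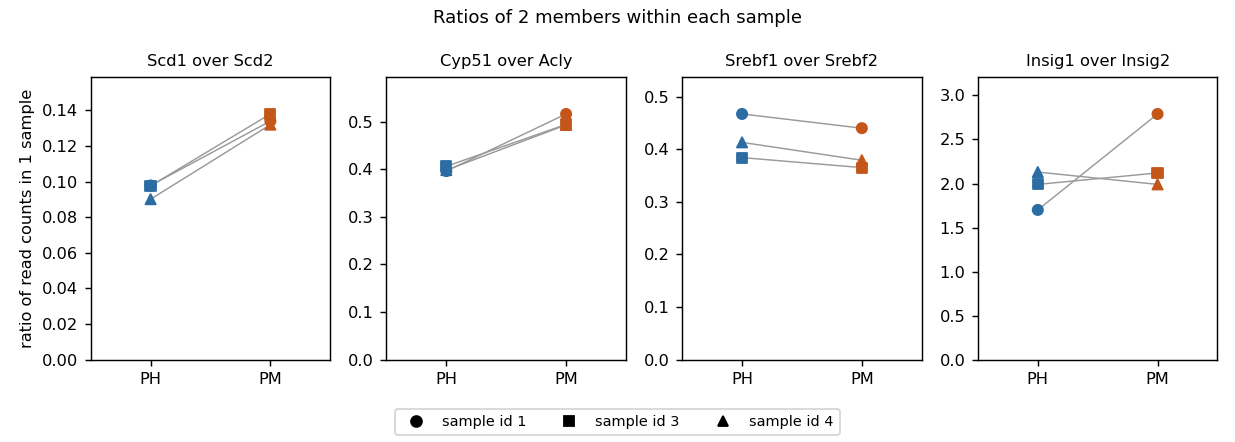
Ratio of the read counts of 2 members within each sample (y axis, from 0, not corrected for gene length) in the 3 PH and 3 PM samples, with a line joining the samples of an id. Scd1 over Scd2 and Cyp51 over Acly separate the groups in all 3 ids, while Srebf1 over Srebf2 and Insig1 over Insig2 overlap.

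The sterol enzymes had larger differences than the fatty acid enzymes by their medians, 0.31 against 0.16, with a gap of 0.15. Within ids 1, 3 and 4 the sterol median was 0.42, 0.26 and 0.24 and the fatty acid median was 0.12, 0.07 and 0.00. The gap was thus 0.30, 0.19 and 0.24, positive in each id, and the median of all genes was 0.01, 0.00 and 0.01. The fatty acid median fell on Elovl6 in the fit, but on Scd2, Fads2 and Elovl5 in ids 1, 3 and 4. The gaps within ids are therefore not parts of the gap of 0.15, and each exceeds it. In 12 of 19 sterol enzymes and 1 of 9 fatty acid enzymes every PM sample was above every PH sample, against 10.1% of all genes. The fatty acid count was thus near the share of all genes. The lists were set with results of these data known, so the contrast is given as a description with no test. Within single samples the ratio of Cyp51 to Acly reads was 0.396, 0.406 and 0.398 with PH and 0.516, 0.494 and 0.493 with PM, without overlap, and this pair too was chosen after its values were seen. The ratio of Srebf1 to Srebf2 reads was 0.467, 0.384 and 0.413 with PH and 0.440, 0.365 and 0.379 with PM. The groups of this ratio overlapped, and it was lower with PM within each id.

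Id 1 gave the widest differences. The log2 difference was largest in id 1 for 25 of the 34 members, in id 3 for 5 and in id 4 for 4. PH sample 1 was the lowest PH sample for 22 members and PM sample 1 the highest PM sample for 22. PM sample 1, like PH sample 3, is a column that matches 2 runs by name, and whether the run bears on these values was not tested. Without PM sample 1 the sterol median was 0.28 and 6 of 19 sterol enzymes passed, with Lss among them and Msmo1 not. With the block and without id 1 the sterol median was 0.23 with 11 enzymes called. The fatty acid median in that fit was 0.04. The number of members with a positive difference was 31 in id 1, 28 in id 3 and 26 in id 4. For these counts by id the share of all genes was not computed. Whether the wider differences in id 1 are particular to these members was thus not tested.

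**Figure D4:**
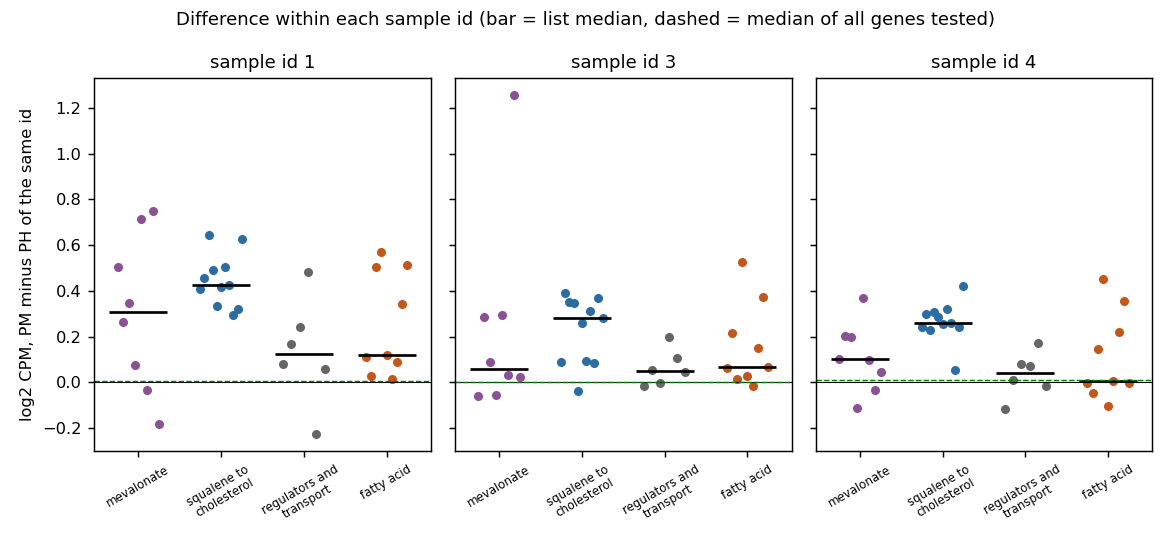
Difference in log2 CPM between the PM and the PH sample of the same id (y axis) for each member (points) by role (x axis), with 1 panel per sample id, the list median as a bar and the median of all genes tested as a dashed line. The squalene-to-cholesterol median is 0.43, 0.28 and 0.26 in ids 1, 3 and 4, above the fatty acid median of 0.12, 0.07 and 0.00.

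Levels between genes were compared per kilobase of exon, as the mean CPM per kilobase with PH. Pmvk was the highest member at 73.6, followed by Scd2 at 67.5, Acly at 58.0, Msmo1 at 49.8, Sqle at 49.4 and Hmgcs1 at 45.6. Srebf2 was at 41.9 and Srebf1 at 20.8. Scd1 stood at 7.24 with PH and 10.4 with PM, far below Scd2 on this scale. The lowest were Acaca at 2.37, Fdps at 1.87 and Elovl6 at 1.40. Exon length here is that of all annotated exons of a gene, which can exceed the transcript made.

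The rest of the pathway was read from 5 lists of related genes. Of all genes tested, 0.702% were called higher and 1.64% lower in edgeR without the block. At an unadjusted p under 0.05 these shares were 6.36% and 6.79%. Of 7 genes for SREBP cleavage and degradation in the endoplasmic reticulum, 0 passed (edgeR and DESeq2; 0 at an unadjusted p under 0.05), with a median log2 fold change of 0.05. The 3 smallest p-values belonged to Mbtps2, the Site-2 protease (0.18 ± 0.08, with exons that overlap Yy2 over 36.1% of their length), and to the ubiquitin enzymes Syvn1 (0.12 ± 0.07) and Ube2g2 (0.06 ± 0.06). Of 13 tested genes of ketogenesis and of the side branches of mevalonate, 0 passed in either tool or with the block and 1 had an unadjusted p under 0.05, Idi2, a second isopentenyl isomerase gene, at a mean of 0.857 CPM for PH and 1.28 for PM. Pggt1b, a prenyltransferase subunit, differed by -0.13 ± 0.07.

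Of 11 genes for cholesterol uptake, transport and storage, 1 rose, against 0.702% of all genes. With the block 4 of them rose and 1 fell, against 7.00% and 8.27% of all genes. Nceh1, a cholesteryl ester hydrolase, averaged 34.5 ± 1.79 CPM in the PH samples and 51.2 ± 1.16 CPM in the PM samples (SD, n = 3). The groups of Nceh1 did not overlap, and it differed by 0.56 ± 0.06 (SE) on the log2 scale (adjusted p = 0.00291 by edgeR). Soat1, the enzyme of the reverse reaction, which stores cholesterol as esters, averaged 160 ± 17.8 CPM for PH and 199 ± 10.9 CPM for PM and passed only with the block (adjusted p = 0.142 and 8.5e-06, edgeR). Vldlr, a lipoprotein receptor that averaged 2.92 ± 0.866 CPM for PH and 1.59 ± 0.344 CPM for PM, fell only with the block (-0.92 ± 0.26, adjusted p = 0.134 and 0.00141, edgeR). The other 2 that rose with the block were Npc1 and Lipa, which move and release lysosomal cholesterol.

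Of 22 tested genes of other fatty acid and lipid synthesis, 0 rose and 1 fell in both edgeR and DESeq2. At an unadjusted p under 0.05, 2 were higher and 2 lower, against 6.36% and 6.79% of all genes. With the block 3 rose and 3 fell, against 7.00% and 8.27% of all genes. Dgat2, which makes triglyceride, averaged 54.5 ± 7.70 CPM in the PH samples and 28.7 ± 7.37 CPM in the PM samples (SD, n = 3). The groups of Dgat2 did not overlap, and it differed by -0.94 ± 0.17 (SE) on the log2 scale (adjusted p = 0.0262 by edgeR). Acsl5, an acyl-CoA synthetase (-0.26 ± 0.08), fell and Mid1ip1, an activator of acetyl-CoA carboxylase (0.27 ± 0.10), rose only with the block (adjusted p = 9.9e-05 and 0.00154, edgeR). Exons of Mid1ip1 overlap another gene on the other strand over 26.9% of their length. Of 8 genes of the liver X receptor (LXR), the sensor of oxysterols that acts opposite to SREBP-2, 0 passed in edgeR or DESeq2 and 1 was higher and 2 lower at an unadjusted p under 0.05, with a median of -0.19. With the block 1 of these LXR genes rose and 3 fell, against 7.00% and 8.27% of all genes. The cholesterol exporter gene Abcg1 averaged 169 ± 1.56 CPM for PH and 149 ± 2.71 CPM for PM (-0.18 ± 0.05), and the LXR-alpha gene Nr1h3 differed by -0.31 ± 0.13. Apoe, an LXR target, averaged 2.77 ± 0.305 CPM for PH and 4.43 ± 0.755 CPM for PM. Abcg1, Nr1h3 and Apoe passed only with the block (adjusted p = 0.00639, 0.0456 and 0.00414, edgeR).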

How the data were processed

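Read counts per gene were deposited by the authors as whole numbers in 6 columns, 1 for each bacterium and sample id, without normalization. The tools STAR 2.5.3a, featureCounts 1.6.4 and Trimmomatic, and the build GRCm38, are listed per the submitters' processing notes. The sources used here do not state the annotation release, the strand setting or how multiply matching reads were treated. The series lists 8 libraries, and 2 columns match 2 libraries each. Each column was taken as 1 sample, with 0 such columns unused. All 15 pairs of columns differed by more than sampling noise (chi-square per degree of freedom at least 4.99).

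The test was that of edgeR 4.0.16 (under R 4.3.3), run after filterByExpr with a minimum count of 10, with TMM scaling, robust glmQLFit and glmQLFTest, and Benjamini-Hochberg adjustment over 14382 genes at 0.05. CPM values are TMM-scaled, and log2 differences within an id use a prior count of 2. The SE was derived from the F value. Fits were tested on simulated data.

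The ids are shared between the groups. Deviations from the group means correlated at 0.44, 0.32 and 0.24 between samples of the same id, and at -0.35 to 0.07 otherwise, so same-id samples were treated as pairs. This rests on the counts, since the labels do not say what an id is, and p-values rest on the spread of these samples, which may be technical.

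Alternatives were the block, the block without each id, RLE scaling, DESeq2 1.42.0, 2 other filters, each sample left out and, chosen after seeing the data, library totals. The members and lists were chosen with earlier results of these data known. All 34 members are described, with full values for those past the threshold in either fit and for Srebf1, Srebf2, Insig1, Fasn and Scd1. Of each related list, up to 3 genes with the smallest p were named, and some results are not reported here. Npc1 and Lipa were named after their values were seen. Promoter windows come from RefSeq, and motifs were searched on both strands.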

Additional observations from a re-analysis of the deposited data

How the results depend on the processing

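With the replicate block, 12 sterol enzymes, 3 fatty acid enzymes and 1 regulator passed, against 6, 1 and 0 without it. Of all genes, 7.00% were called higher with the block and 0.702% without it. With the block and without ids 1, 3 and 4 in turn, 11, 14 and 12 sterol enzymes, 2, 3 and 4 fatty acid enzymes and 0, 1 and 1 regulators passed. With no low-count filter, 10 sterol and 2 fatty acid enzymes passed. That fit called 846 of 27765 genes in either direction, against 337 of 14382 with the filter and without the block. When single samples were left out of the fit without the block, the sterol count ranged from 0 to 6, the fatty acid count from 0 to 1 and the regulator count stayed at 0. The median log2 fold change then ranged from 0.26 to 0.32 for sterol enzymes and from 0.084 to 0.20 for fatty acid enzymes, and the gap between them from 0.11 to 0.22. The fatty acid median was 0.043 with the block and without id 1. The cause of these changes was not tested. RLE scaling and a filter of 1 CPM in 3 samples changed no call of a member, and DESeq2 and library totals each added 2. No called member changed direction in any of these fits. Library totals moved the median of all genes to 0.03 and called 321 genes in either direction, against 337 with TMM scaling. Counts of members were 98 or more in every sample, except for Fdps at 21 or more.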
